A study of Homo sapiens with 9 samples.

Results

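Untreated cells at day 5 of the exit from naive pluripotency are described here, from the 3 vehicle libraries (DMSO replicates 1 to 3) of a series of 9. The members were taken by their labels alone. Treated libraries enter only an alternative scaling, whose factors were taken over all 9 libraries. The study followed HNES1, a wild-type human pluripotent stem cell line established from an embryo, and asked what loss of Polycomb repressive complex 2 does during this transition. The other groups received UNC6852, a degrader of the subunit EED, or UNC1999, an inhibitor of the catalytic subunits, and are not analysed here.

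Naive cells were kept on irradiated mouse embryonic fibroblasts in N2B27 medium with the MEK inhibitor PD0325901, human LIF, the PKC inhibitor Gö6983 and the tankyrase inhibitor XAV939. For the experiment they were plated on Geltrex, and DMSO was added a day before the change to N2B27 with XAV939 that marked day 0. Medium and DMSO were then renewed daily until harvest at day 5. All 3 libraries share this line, genotype, vehicle and day, and the experiment was done independently 3 times. One line stands for one embryo, so spread between embryos was not measured. A naive starting sample and a primed end point are not analysed here, so levels are given as they stand at day 5 and no gain or loss since day 0 can be read from them.

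Naive human pluripotent cells resemble the epiblast of the blastocyst before implantation, and primed cells resemble the epiblast after it. When the naive medium is withdrawn, cells pass through an intermediate, often called formative, in which transcription factors particular to the naive state give way while OCT4 (POU5F1) and SOX2 persist. DNA methylation is rebuilt and lineage competence is gained over the same period. Human naive cells are known for keeping access to trophoblast, which primed cells largely lose.

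Levels of different genes are compared in TPM, which divide each count by the gene's exon length and are scaled so that nuclear protein-coding genes sum to the same fixed total in every library. The same gene is compared between libraries in CPM, its count relative to the library's total after TMM scaling. In the text, values are given in the order of libraries 1, 2 and 3, errors are SD over n = 3, and ratios in parentheses are the highest over the lowest library in CPM. A gene was called detected at 1 CPM or more in every library. It was called varying when the highest library was at least 1.5 times the lowest and the counts differed beyond counting error at a false discovery rate of 0.05 over all genes tested. That test compares these libraries, and with 3 libraries a two-sided exact sign test cannot go below p = 0.25.

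Total counts were 63678362, 84716561 and 42043602. In all, 16165 entries were detected, among them 13595 of 19765 nuclear protein-coding genes (68.8%) and 1550 of 14919 non-coding genes (10.4%). The median protein-coding gene stood at 11.3 TPM, 2048 were at 100 TPM or more, and 2114 had no count in any library. Of 16728 entries with a mean of at least 1 CPM, 1510 varied (9.03%, or 9.24% by the ratio alone), a share that was 5.59% among nuclear protein-coding genes and 27% among non-coding genes. The share depended on level: among protein-coding genes it was 24.1% between 1 and 5 CPM, 4.55% up to 20 CPM, 0.953% up to 100 CPM and 0.526% above. Among non-coding genes it was 32.1%, 17.4%, 17.2% and 6% in the same bands. Beside the count of varying members of a list stands the share at the same levels, which is the share of its band and gene type averaged over the list's tested members. Library 1 stood slightly apart: the median absolute log2 difference between detected genes was 0.15 and 0.14 from libraries 2 and 3, and 0.12 between those.

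The markers of the cells were all present. POU5F1 (chromosome 6, 31164337 to 31180731 in GRCh38), the factor shared by naive and primed cells, stood at 1231, 1281 and 1202 TPM and ranked 81 among protein-coding genes. Its partner SOX2 (chromosome 3, 181711925 to 181714436) stood at 208, 176 and 201 TPM, and NANOG at 432, 412 and 398 TPM. KLF17 (chromosome 1, 44118821 to 44135140), a marker of naive cells, was at 53.9, 38.3 and 53.5 TPM, while ZIC2 (chromosome 13, 99981784 to 99986765), a marker of primed cells, was at 85.2, 70.9 and 74.2 TPM. KLF17 was below ZIC2 in every library, with a ratio of 0.631 ± 0.0908 (SD, n = 3). Markers of both states were thus read in the same RNA, and in bulk samples a mixture of cells and co-expression within cells cannot be told apart, nor can fewer cells of a type and less RNA per cell.

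Of 23 genes shared by pluripotent states, 23 were detected and 0 varied, with a median of 313 TPM. The highest was DNMT3B, a de novo DNA methyltransferase, at 2241, 1856 and 1845 TPM. Next came LIN28A, an RNA-binding protein that blocks let-7 processing, at 1941, 2034 and 1792 TPM. CRIPTO, a co-receptor for NODAL, reached 1489.6, 1364 and 1355 TPM, and GDF3, a ligand of the same pathway, 1473, 1354 and 1319 TPM. CRIPTO was above GDF3 in each library, by less than the spread of either gene between libraries. Below POU5F1 stood DPPA4 (1032 ± 101 TPM), UTF1 (944 ± 58.6) and TRIM71 (633 ± 30.4), an RNA-binding protein that let-7 represses. Among the members with the largest spread, TERT, TERF1 and PRDM14 had highest over lowest libraries between 1.37 and 1.397. The share at the same levels was 0.775%, so a count of 0 is near that background.

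**Figure D1:**
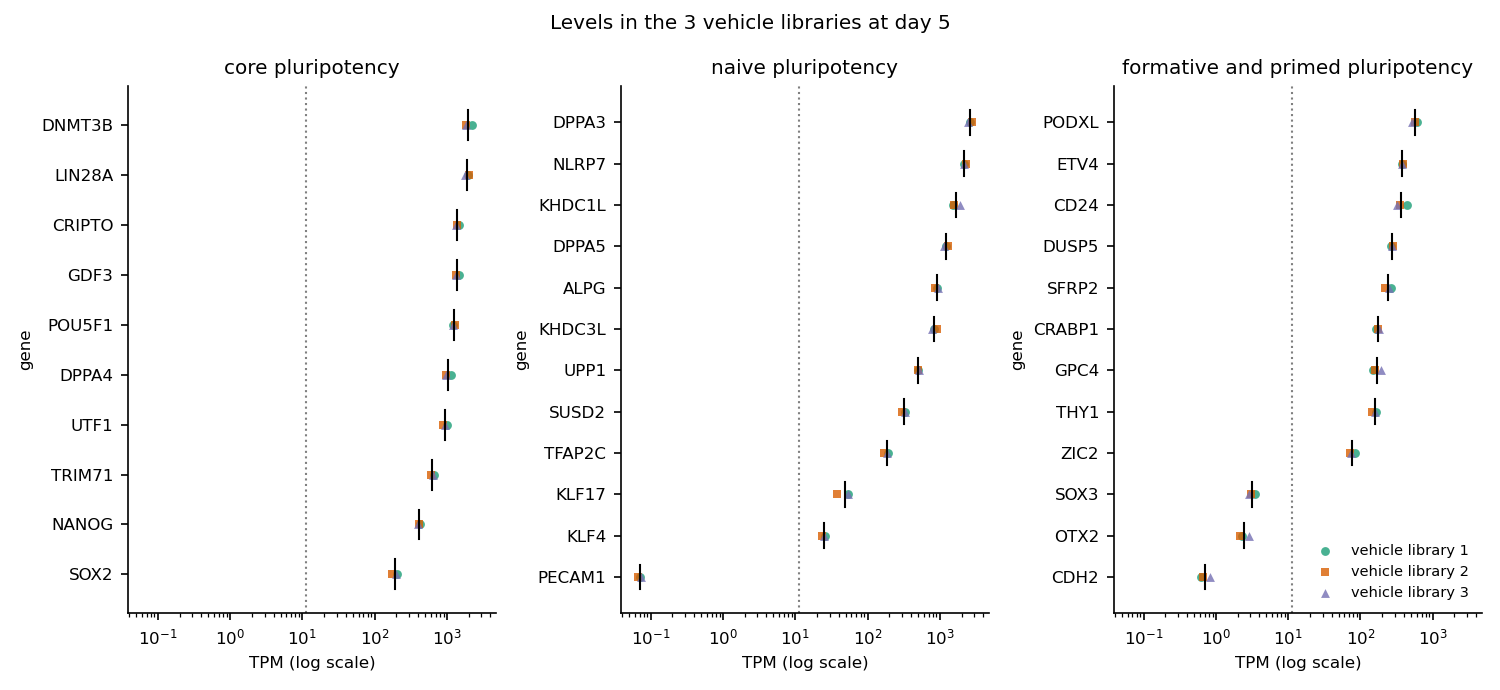
Levels in TPM (log scale) of the highest members and of selected markers of the core, naive and formative or primed lists; symbols are the 3 vehicle libraries, black bars their mean, and the dotted line the median of all nuclear protein-coding genes, 11.3 TPM. The 3 libraries lie close together for most genes, DPPA3 leads the naive panel at 2625 TPM, and PECAM1, SOX3, OTX2 and CDH2 lie under the dotted line.

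Naive genes were among the most abundant transcripts. DPPA3, a maternal factor that protects methylation marks and opposes UHRF1, stood at 2596, 2821 and 2457 TPM and ranked 18 of all protein-coding genes, between PRDX1, a peroxiredoxin, and EEF1G, a translation elongation factor. NLRP7, an NLR family gene active in oocytes and early embryos, reached 2149.6, 2315 and 2131 TPM. The KH domain genes KHDC1L, DPPA5 and KHDC3L stood at 1658 ± 195, 1219.8 ± 86.5 and 844 ± 70.7 TPM. KHDC1L lies inside a larger protein-coding entry at 711 TPM, so its reads may be shared. ALPG, a placental-type alkaline phosphatase, was at 921, 851 and 954 TPM, and SUSD2, a surface protein used to sort naive cells, at 335, 296 and 328 TPM. In all, 32 of 34 naive genes were detected, with a median of 65.4 TPM.

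Transcription factors of the naive state were lower than those products. TFAP2C, needed for the naive state in human cells, stood at 194, 171 and 188 TPM. KLF5 was at 62.2 ± 5.15 TPM, KLF4 at 24.8 ± 1.23, ESRRB at 12.2 ± 2.59 and TBX3 at 3.898 ± 0.933. KLF17 exceeded KLF4 in each library, with a ratio of 1.95 ± 0.272. Of 33 naive genes tested, 5 varied (15.2%), against 4.82% at the same levels: OLAH (ratio 2.05), FAM151A (1.798), TBX3 (1.64), ARGFX (1.58) and ESRRB (1.53). Their means were 22.4 TPM or less, and their highest library was library 2 or library 3. Of the 5, 3 lay between 1 and 5 CPM, and 3 varied without library 1. PECAM1, an endothelial and naive surface protein, was at 0.07096, 0.0658 and 0.0737 TPM.

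Genes of the formative and primed states had a median of 51.9 TPM, and 32 of 36 were detected. PODXL, which carries the TRA-1 epitopes, led with 609, 566 and 521 TPM. ETV4, a transcription factor downstream of FGF signalling, was at 379, 386 and 370.0 TPM, and DUSP5, a phosphatase that acts on ERK, at 263, 282 and 273 TPM. The surface proteins CD24 and THY1 stood at 369 ± 62.2 and 157 ± 11.2 TPM, the WNT antagonist SFRP2 at 244 ± 22.98 and the retinoic acid binding protein CRABP1 at 173 ± 8.52. Several members of this list were low: OTX2 stood at 2.28, 2.19 and 2.902 TPM, SOX3 at 3.505, 3.03 and 2.84 and CDH2 (N-cadherin) at 0.6197, 0.653 and 0.832. FGF5 had no count in any library, which allows up to 0.0158 CPM over the group at a floor of 3 counts. Of 32 tested, 4 varied (12.5%), against 4.27% at the same levels: PTPRZ1 (1.81), HMGA2 (1.58), DUSP6 (1.56) and SPP1 (1.55). PTPRZ1, HMGA2 and SPP1 were lowest in library 3, and DUSP6 in library 2.

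On a ratio scale, the naive and primed marker pairs did not all point the same way, with KLF17 over ZIC2 below 1. DPPA5 exceeded SFRP2 by 5.05 ± 0.818 times, and SUSD2 over CD24 was 0.766, 0.833 and 1.04, which lies on both sides of 1. In the other 30 of 31 pairs the 3 libraries fell on the same side. SOX2 was 62.6 ± 6.98 times SOX3, SALL4 21.3 ± 2.64 times SALL1, and CDH1 (E-cadherin) 394 ± 64.7 times CDH2. DPPA2 was 0.292 ± 0.0321 of its partner DPPA4, or 0.177 with longest transcripts as gene length. The widest of these ratios rest on a denominator of a few TPM or less.

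**Figure D2:**
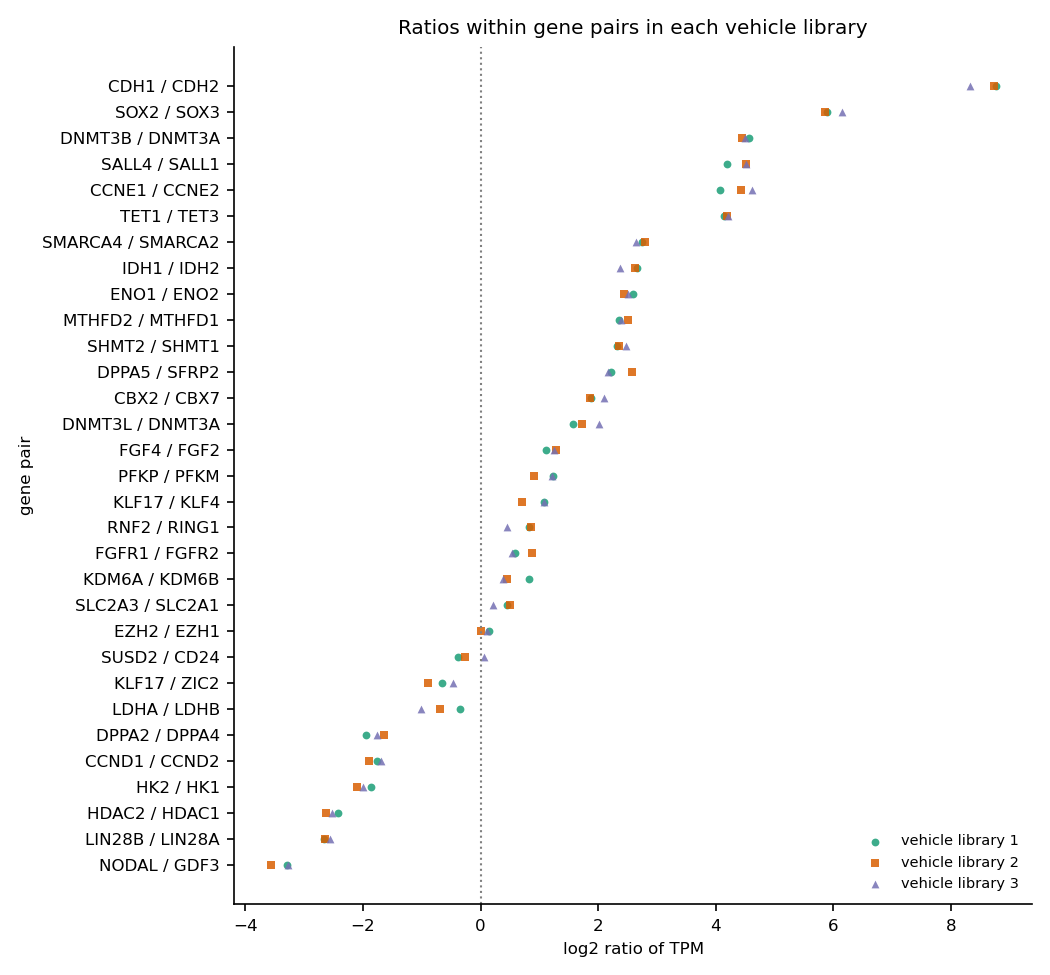
Log2 ratio of TPM within each of 31 gene pairs; symbols are the 3 vehicle libraries and the dotted line marks equal levels. Library symbols lie on the same side of the line for 30 pairs and straddle it for SUSD2 over CD24, and EZH2 over EZH1 lies closest to it among the 30.

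Several neighbours of the most abundant naive genes were at or near 0. These neighbourhoods were picked after the values were seen. On chromosome 12, GDF3 (7689784 to 7695775), DPPA3 (7711433 to 7717559), NANOG (7787794 to 7799146) and SLC2A3 (7919230 to 8019007) stood at 1382, 2625, 414 and 577 TPM. Between them CLEC4C, a lectin of plasmacytoid dendritic cells, was at 1.09 TPM and NANOGNB at 1.65 TPM, and APOBEC1, the editor of APOB mRNA on the other side of GDF3, had no count. SLC2A14, a near copy of SLC2A3, stood at 33.5 TPM, and reads may be split between them. On chromosome 6, KHDC1 at 5.07 TPM lay between KHDC1L and DPPA5 (73353063 to 73354276). KHDC3L, the next gene, was at 844 TPM, and OOEP, an oocyte protein, at 43.5 TPM. On chromosome 19, NLRP7 (54923509 to 54966312) overlapped NLRP2, which stood at 842 TPM on the opposite strand, and without the strand of the reads the overlap cannot be divided.

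The host transcripts of the pluripotency microRNAs were abundant, and the mature sequences are shown because the hosts differ in level by family. A host's count does not measure the mature microRNA. MIR302CHG, host of the miR-302 and miR-367 cluster (chromosome 4, 112647877 to 112648547, minus strand), stood at 744, 642 and 538 TPM. MIR17HG, host of the miR-17 to miR-92a cluster (chromosome 13, 91350618 to 91351382, plus strand), was at 97.5, 78.6 and 75.3 TPM. MIRLET7BHG, host of let-7a and let-7b on chromosome 22 (46112752 to 46113766, plus strand), was at 0.3296, 0.466 and 0.2197 TPM. Sequences and positions are from RefSeq on GRCh38.p14, written 5′ to 3′ with the seed, bases 2 to 8, in capitals.
hsa-miR-302a-3p: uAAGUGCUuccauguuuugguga
hsa-miR-302b-3p: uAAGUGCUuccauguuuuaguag
hsa-miR-302c-3p: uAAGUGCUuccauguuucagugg
hsa-miR-302d-3p: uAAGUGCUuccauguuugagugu
hsa-miR-17-5p: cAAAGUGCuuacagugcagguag
hsa-miR-20a-5p: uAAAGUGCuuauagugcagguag
hsa-miR-367-3p: aAUUGCACuuuagcaaugguga
hsa-miR-92a-3p: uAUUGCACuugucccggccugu
hsa-let-7a-5p: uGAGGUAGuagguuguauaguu
hsa-let-7b-5p: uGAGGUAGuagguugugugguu

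The 4 miR-302 3p arms share the seed AAGUGCU, and miR-17-5p and miR-20a-5p carry AAAGUGC. Shifted by a base, these seeds match except for the last U of AAGUGCU and the first A of AAAGUGC. The seed AUUGCAC is shared by miR-367-3p and miR-92a-3p, from the chromosome 4 and chromosome 13 hosts. Both let-7 arms carry GAGGUAG. LIN28B, which like LIN28A acts against let-7 maturation, stood at 307, 327 and 306 TPM, 0.163 ± 0.006502 of LIN28A.

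Other non-coding RNAs of pluripotent cells were led by TERC, the telomerase RNA, at 1837, 1772 and 1767 TPM. ESRG, a transcript driven by an HERVH element, reached 1168, 777 and 979.9 TPM, and LNCPRESS1 621, 609 and 641 TPM. Of 29 such RNAs in the table, 21 were detected and 5 of 21 tested varied (23.8%), against 18.2% at the same levels. LINC01108 stood at 24.8, 11.9 and 29.3 CPM and LINC-ROR at 10.8, 6.599 and 14.2 CPM, both lowest in library 2. HELLPAR, which overlaps other genes on chromosome 12, was at 111, 41.99 and 46.3 CPM, highest in library 1. LINC03040 (ratio 1.81) and VLDLR-AS1 (1.57) were the others. XACT, which coats the X chromosome in human pluripotent cells (chromosome X, 113616300 to 114059289), stood at 103, 21.8 and 43.3 CPM, 4.72 times higher in the first library than in the second.

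Among the non-coding entries analysed, the highest in TPM were 2 short housekeeping ribozymes. That order depends on gene length. In mean CPM, MALAT1 (11476) and ENSG00000282885 (5130) stood above RPPH1 (2602) and RMRP (2143). RMRP, the RNA of RNase MRP, stood at 33177, 41079.6 and 43989 TPM, and RPPH1, the RNA of RNase P, at 31916, 39392 and 42488 TPM. Both were lowest in library 1, yet neither varied by the rule, with ratios of 1.41 and 1.41. Entries that overlap RPPH1 and SCARNA2 held nearly the same counts as those genes, so reads were shared. MALAT1, a nuclear long RNA, was at 6924, 6372 and 5733 TPM, the imprinted MEG3 at 1024, 865 and 848, and GAS5, a snoRNA host, at 835, 814 and 769. ENSG00000282885 (chromosome 14, 49860314 to 49868199) varied by 1.67 times at 3993, 6665 and 4733 CPM. Of 30 general non-coding RNAs tested, 6 varied (20%), against 11.7% at the same levels and 27% of all non-coding genes: FTX (1.88), PVT1 (1.73), JPX (1.67), DLEU2 (1.63), RMST (1.56) and KCNQ1OT1 (1.56). These were highest in library 1 in 6 of 6, as were 341 of all 470 varying non-coding genes. Without that library 0 of the 6 varied, against 3 without library 2 and 5 without library 3. Leaving out the highest library must lower each ratio, so the 0 was largely fixed in advance. HOTAIR and HOTTIP, long RNAs of the HOX clusters, had no count.

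Markers of other lineages were read against their lists. The trophoblast list had a median of 3.27 TPM, 19 of 35 members were detected, and 9 of 21 tested varied (42.9%), against 11.8% at the same levels. Of those 9, 7 lay between 1 and 5 CPM, among 9 members tested there, and 24.1% of protein-coding genes varied in that band. The keratins KRT18 and KRT8, found in simple epithelia generally, stood at 659, 706 and 729.9 and 222, 229 and 242 TPM. Some genes of the hormone-making syncytium were low but uneven, while CSH1, at 3.46, 3.81 and 4.64 CPM, did not vary (1.34). CGA, the shared alpha subunit of glycoprotein hormones (chromosome 6, 87085498 to 87095106), stood at 4.304, 22.8 and 16.01 CPM, 5.295 times from lowest to highest. Its partners CGB5, CGB3 and CGB7, near-identical copies whose reads cannot be assigned with certainty, stood at 1.05, 3.702 and 3.31, 0.447, 1.42 and 1.66 and 1.203, 3.101 and 2.74 CPM.

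The envelope genes that fuse trophoblast cells were also lowest in library 1. ERVW-1 (syncytin-1) was at 1.99, 5.24 and 5.04 CPM and ERVFRD-1 (syncytin-2) at 0.478, 2.37 and 1.57 CPM. GATA2 and GATA3, early trophoblast factors, were at 2.78, 6.31 and 5.16 and 1.79, 2.97 and 2.19 CPM, and KRT7 at 8.73, 10.6 and 13.1 CPM. All 9 varying members were lowest in library 1, and 7 were highest in library 2. Among all 773 protein-coding genes that varied, 205 were lowest in library 1. Of the 21 tested members, varying or not, 14 were highest in library 2 and 0 in library 1, while 35.6% and 30.3% of protein-coding genes were so. On RLE-scaled CPM and on TPM those counts were the same, while the shares over protein-coding genes on TPM were 21.5% and 51.7%. Without library 1, 1 of the 9 still varied (ERVFRD-1, ratio 1.51), against 8 without library 2 and 7 without library 3. Between libraries 2 and 3, CGA had a ratio of 1.42. Leaving out the lowest library must lower every ratio, so the count without library 1 was largely fixed in advance. ERVV-1 and ERVV-2, further envelope genes on chromosome 19 that are not on the list, stood at 8.21, 19.7 and 14.8 and 7.45, 16.3 and 13.3 CPM, also lowest in library 1.

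Several other genes of the trophoblast list were at or near 0. TP63 stood at 0.0106, 0.0381 and 0.0153 TPM, ELF5 at 0.0175, 0 and 0.0255 and VGLL1 at 0.05104, 0.405 and 0.0742, and PSG1 at 0.0159, 0 and 0.0231. HAND1 was at 0.9504, 1.53 and 1.51 TPM and CYP19A1 (aromatase) at 0.0466, 0.242 and 0.149. NUPR1, a stress-responsive chromatin protein, and GPX2, a glutathione peroxidase, also varied with the lowest value in library 1, at 5.82, 12.7 and 12.2 and 10.8, 17.7 and 21.5 CPM. The share of counts on mitochondrial mRNAs was 5.12%, 4.14% and 4.29% in the same libraries, and its part in these differences was not tested.

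**Figure D3:**
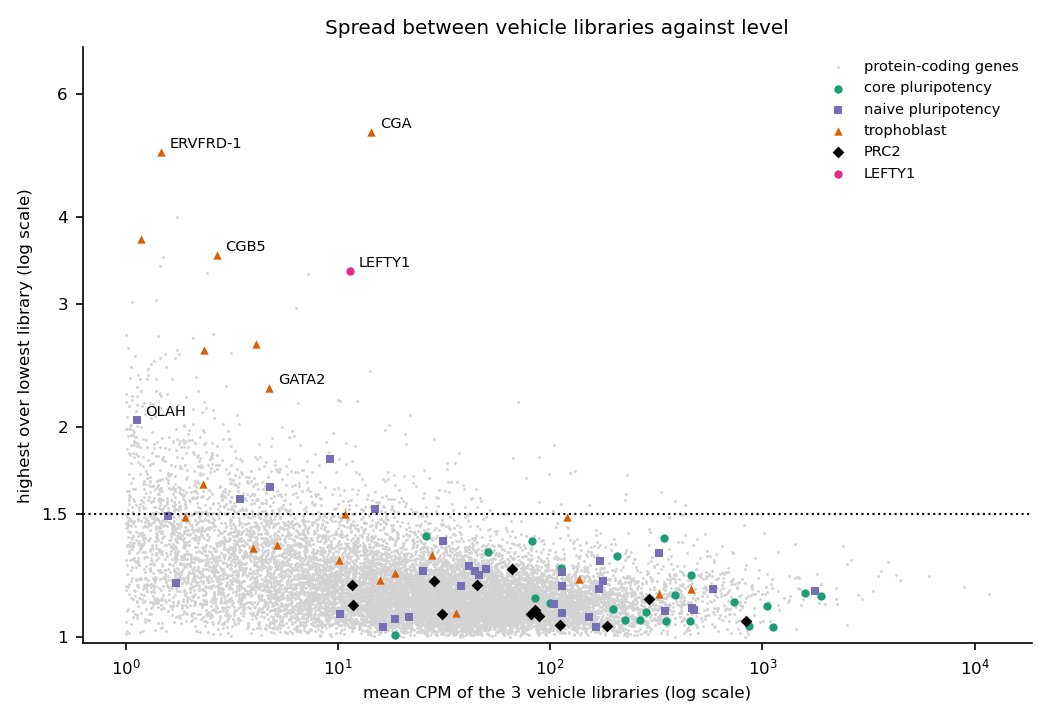
Ratio of the highest to the lowest vehicle library against mean CPM (both log scales) for protein-coding genes with a mean of at least 1 CPM; grey points are all genes, coloured symbols the core, naive, trophoblast and PRC2 lists, and the dotted line the ratio of 1.5. CGA (5.30), ERVFRD-1 (4.95), CGB5 (3.53) and LEFTY1 (3.34) lie above the cloud at their levels, and core and PRC2 genes lie under the line.

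Markers of the germ layers and of extraembryonic endoderm were mostly low. Of 27 hypoblast and endoderm genes, 13 were detected, with a median of 2.12 TPM. APOE, a lipid carrier that pluripotent cells also express, stood at 1213, 1232 and 1209 TPM. The laminin genes LAMB1 and LAMA1 were at 48.1 ± 3.65 and 38.3 ± 2.93 TPM, and the collagen genes COL4A1 and COL4A2 at 21.9 ± 2.98 and 16.6 ± 1.88. GATA6 was at 0.299, 0.446 and 0.609 TPM, GATA4 at 5.35, 6.399 and 7.83 and SOX17 at 0.0336, 0.267 and 0.195, and AFP had a single count over all libraries. Of 14 tested, 4 varied (28.6%), against 10.2% at the same levels: LEFTY1, LEFTY2, HHEX (1.57) and GATA4 (1.55). LEFTY1, a NODAL antagonist and target (chromosome 1, 225886282 to 225911382), was at 17.05, 5.096 and 12.2 CPM, and its neighbour LEFTY2 at 3.69, 2.32 and 3.35 CPM. Both were lowest in library 2 and highest in library 1. NODAL itself differed less, with 50.2, 40.9 and 48.02 CPM, in the same order.

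Mesoderm genes had a median of 1.95 TPM, and 14 of 26 were detected. TBXT (brachyury), the marker of the primitive streak, stood at 9.99, 8.05 and 12.9 TPM and MIXL1 at 5.85, 3.94 and 4.57. EOMES was at 1.44, 0.823 and 1.35 TPM, while WNT3 and SNAI1 reached 39.6 ± 2.59 and 47.8 ± 7.11 TPM. Here 4 of 14 tested varied (28.6%), against 15.5% at the same levels: PDGFRB (1.63), TBXT (1.57), KDR (1.56) and TWIST1 (1.52). Their highest libraries were not shared. Amnion genes were detected in 14 of 18 cases at a median of 3.71 TPM. They were led by BAMBI (37.8 ± 5.74), ANXA3 (30.97 ± 8.51) and IGFBP7 (27.8 ± 2.07 TPM). ISL1 stood at 3.47, 3.604 and 3.65 and GABRP at 2.18, 1.55 and 1.71 TPM. Of 14 tested, ANXA3 varied (1.74), or 7.14% against 12.7% at the same levels.

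Neural genes had a median of 0.976 TPM and 10 of 31 were detected. NES, an intermediate filament that pluripotent cells also express, led with 364, 361 and 351 TPM. PAX6 stood at 0.0529, 0.0573 and 0.0715 TPM and SOX1 at 0.526, 0.0998 and 0.121. Of 11 tested, 4 varied (36.4%), against 12.8% at the same levels, among them SOX10 (1.73), NKX6-1 (1.72) and RAX (1.61), in each library at 11.1 TPM or less. In the HOX clusters, 5 of 39 genes were detected. Among those at the 3′ ends of the HOXB and HOXD clusters, HOXB2 stood at 33.9, 40.5 and 44.4 TPM, HOXB1 at 31.1, 40.9 and 33.96, HOXD1 at 6.37, 7.36 and 7.53 and HOXD4 at 5.59, 6.202 and 5.08. HOXB5, HOXB8 and HOXC12 had no count.

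Of 20 fibroblast genes, 10 were detected and 6 had no count in any library: COL3A1, DCN, LUM, DPT, FAP and VCAM1. FBLN1 stood at 143, 123 and 119 TPM, COL1A2 at 80.98, 82.6 and 71.9 and TAGLN at 47.03, 52.5 and 68.2. The summed level of the list was 465, 421 and 412 TPM. Of 10 tested, 4 varied (40%), against 6.18% at the same levels: TWIST2 (1.74), PDGFRB, COL1A1 (1.56) and TAGLN (1.54). RNA of the mouse feeders of the earlier culture was not measured here.

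Genes of the cleavage-stage embryo had a median of 10.5 TPM, most of them in multicopy families whose reads cannot be assigned with certainty. H3Y1, a primate histone variant, stood at 197, 155 and 133 TPM and CCNA1, a cyclin of the germline and early embryo, at 164, 119 and 134. TPRX1 was at 37.2, 24.3 and 26.7 TPM, ZSCAN4 at 9.48, 6.51 and 8.799 and DUX4, the activator of this programme, at 0.889, 0.864 and 0.337. Of 14 tested, 3 varied (21.4%), against 15.5% at the same levels: LEUTX (1.93), KDM4E (1.72) and TPRX2 (1.56). On CPM 12 of 14 were highest in library 1, against 30.3% of protein-coding genes, and on TPM 13 of 14, against 51.7%. Germline genes were detected in 12 of 22 cases and 0 of 13 tested varied, against 9.16% at the same levels. The meiotic cohesin REC8 stood at 71.9, 80.7 and 77.3 TPM and SYCP3 at 66.3, 56.6 and 66.98, while DDX4 was at 1.73, 1.097 and 1.34 and NANOS3 at 0.0796, 0.172 and 0.

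**Figure D4:**
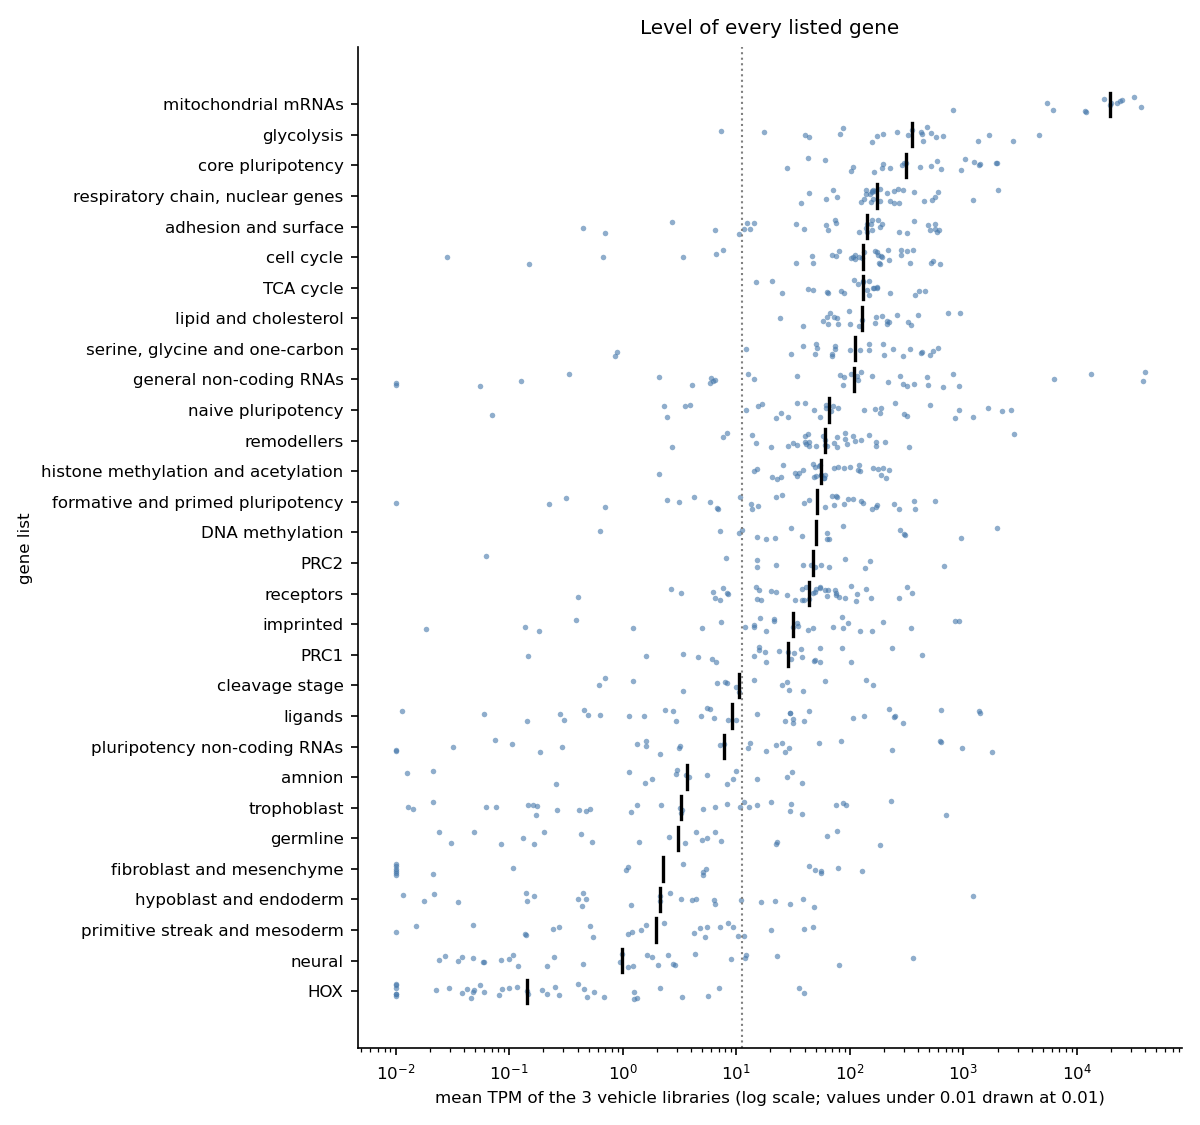
Mean TPM (log scale) of every gene of the 30 lists in the vehicle libraries; points are genes, black bars list medians, and the dotted line the median of all nuclear protein-coding genes, 11.3 TPM. Glycolysis and core pluripotency lie highest among nuclear lists, at medians of 352 and 313 TPM, and HOX genes lowest.

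Glycolytic genes had a median of 352 TPM over 23 genes, all 23 detected, and 0 varied, where the share at the same levels was 0.794%. GAPDH stood at 4580.2, 4882 and 4332 TPM, ENO1 at 2889, 2761 and 2482, TPI1 at 1706, 1747 and 1543 and ALDOA at 1415, 1371 and 1243. LDHA, which favours lactate, was 0.784, 0.6199 and 0.496 of LDHB, and HK2 was 0.253 ± 0.0211 of HK1. The glucose transporter SLC2A3 stood at 599, 639 and 493 TPM and SLC2A1 at 438, 452 and 427, a ratio of 1.31 ± 0.139. PDK1, which inhibits entry of pyruvate into mitochondria, was low at 8.35, 6.48 and 7.31 TPM. Glycolytic genes were lowest in library 3 for 17 of 23 on CPM and 19 of 23 on TPM, against 28.3% and 34.2% of protein-coding genes.

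The 24 genes listed for the citric acid cycle had a median of 130.0 TPM, and 0 varied, against 0.889% at the same levels. MDH2 (458 ± 27.3) led, followed by ACLY (409.9 ± 53.7), a cytosolic enzyme on the list that is not part of the cycle. Nuclear genes of the respiratory chain had a median of 175 TPM, led by ATP5F1B at 1939.7, 2089 and 1987 TPM and COX8A at 1134, 1319 and 1219, and 0 of 32 varied, against 0.673%. On CPM, 31 of 32 were lowest in library 1, and on TPM 22 of 32, against 41.1% and 20.2% of protein-coding genes. The 13 mitochondrial mRNAs ran the other way, highest in library 1 for 13 of 13 on both scales, against 30.3% on CPM and 51.7% on TPM. MT-CO1 stood at 41582, 35192 and 33976 TPM, and MT-ND3 varied, with a ratio of 1.57.

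Of 27 genes of serine, glycine and one-carbon metabolism, 26 were detected and 0 varied, against 1.64% at the same levels. PSAT1 stood at 598, 637 and 575 TPM and MTHFD2, a mitochondrial folate enzyme, at 523, 570.4 and 518, 5.37 ± 0.3096 times MTHFD1. The mitochondrial SHMT2 was 5.22 ± 0.291 times the cytosolic SHMT1, or 2.796 times with longest transcripts as gene length. NNMT, which consumes the methyl donor S-adenosylmethionine, was at 0.674, 0.778 and 1.21 TPM.

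Lipid and cholesterol genes had a median of 127 TPM. SCD, the stearoyl-CoA desaturase, stood at 882, 1101 and 794 TPM and FASN at 779.8, 782 and 654. INSIG1, MVD and HMGCS1, targets of the sterol-regulated factor SREBP2, varied with ratios of 1.72, 1.69 and 1.62, which is 3 of 25 (12%), against 0.646% at the same levels. On CPM 25 of 25 genes were highest in library 2, with either scaling, and on TPM 21 of 25, against 35.6% and 21.5% of protein-coding genes. Without library 2, 0 of the 3 varied, against 1 without library 1 and 3 without library 3. All 3 were highest in library 2, so leaving it out must lower their ratios and the 0 was largely fixed in advance.

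**Figure D5:**
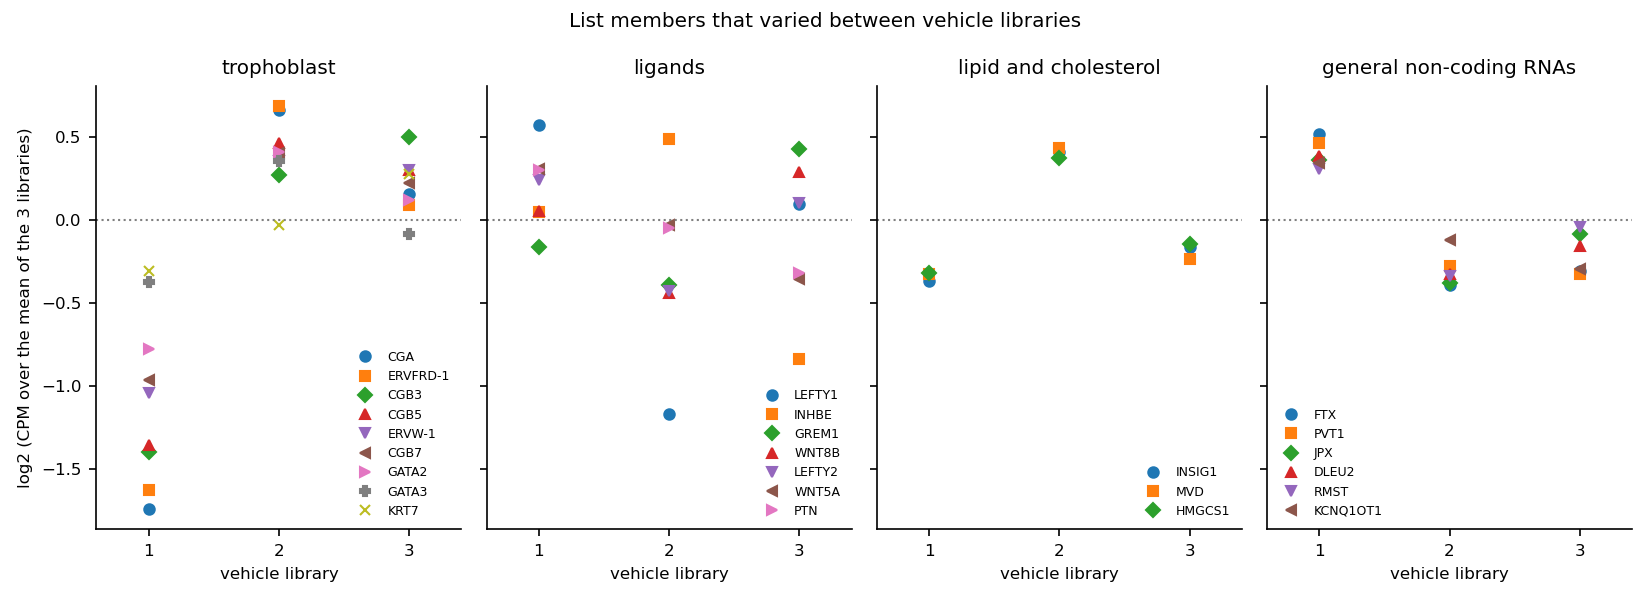
Log2 of CPM over the mean of the 3 libraries for the varying members of 4 lists, by vehicle library; each symbol is a gene and the dotted line its mean. Trophoblast members lie lowest in library 1, cholesterol genes highest in library 2, general non-coding RNAs highest in library 1, and LEFTY1 lowest in library 2.

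Chromatin genes did not vary between libraries in any of 5 lists: 0 of 13 tested for PRC2, 0 of 24 for PRC1, 0 of 18 for DNA methylation, 0 of 35 for histone methylation and acetylation and 0 of 35 for remodellers. The shares at the same levels were between 0.951% and 4.53%, so these counts are near the background. PRC2, which writes H3K27me3, is the complex targeted in the treated groups. Its cofactor JARID2 stood at 732, 649 and 655 TPM, SUZ12 at 65.9, 65.4 and 65.97 and EED, the subunit that reads H3K27me3, at 8.24, 7.71 and 8.64. The catalytic subunits EZH2 and EZH1 were nearly equal, at 54.3, 49.2 and 43.1 and 49.1, 48.9 and 39.7 TPM. Their ratio was 1.11, 1.01 and 1.08, and its direction depends on the gene length used (log2 ratio 0.09 with exon unions, -0.19 with longest transcripts). EZHIP, an inhibitor of the complex, was at 0.0408, 0.147 and 0 TPM.

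PRC1, which ubiquitinates H2A, was led by PHC1 at 453, 444 and 412 TPM. Of the catalytic subunits, RNF2 was 1.65 ± 0.248 times RING1. Among the PCGF subunits that define PRC1 variants, PCGF2 and PCGF6 stood at 102 ± 3.73 and 37.9 ± 3.04 TPM, and BMI1 (PCGF4) and PCGF5 at 6.64 ± 0.914 and 1.61 ± 0.0731. KDM2B, which recruits a variant complex to CpG islands, was at 91.9, 83.3 and 82.7 TPM. CBX2 was 3.85 ± 0.366 times CBX7.

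The DNA methylation genes were uneven among themselves. DNMT3B was 22.6 ± 0.892 times DNMT3A, and the cofactor DNMT3L was at 282, 282 and 329 TPM, 3.43 ± 0.542 times DNMT3A. The maintenance enzyme DNMT1 stood at 72.2, 62.1 and 62.5 TPM and its partner UHRF1 at 20.1, 17.5 and 17.2. ZFP57, which guards imprints, was at 338, 294 and 291 TPM and TRIM28, its corepressor, at 1001, 913 and 934. Of the demethylases, TET1 was at 285, 265 and 278 TPM, 18.1 ± 0.461 times TET3, and TET2 at 0.683, 0.675 and 0.528. HMGA1, an architectural protein, was the highest chromatin gene at 2847, 2899.5 and 2612 TPM. SMARCA4 was 6.64 ± 0.343 times its paralogue SMARCA2, HDAC2 was 0.174 ± 0.0116 of HDAC1, and the H3K27 demethylase KDM6A was 1.48 ± 0.258 times KDM6B.

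Of the signalling genes, 26 of 36 ligands and 42 of 43 receptors or transducers were detected. CRIPTO and GDF3 led the ligands, and NODAL at 151, 114 and 136 TPM was 0.0968 ± 0.0108 of GDF3. The growth factor MDK stood at 617, 639.7 and 657 TPM, and FGF4 at 257, 239 and 251, 2.33 ± 0.145 times FGF2. FGFR4 led the receptors at 367, 357 and 325 TPM, followed by the WNT receptor FZD5 at 345, 312 and 301, and FGFR1 was 1.596 ± 0.214 times FGFR2. BMP4 stood at 15.5, 14.6 and 15.6 TPM, and DKK1 and INHBA were at 0, 0.0772 and 0.104 and 0, 0.0205 and 0.0138 TPM. Of 28 ligands tested 7 varied (25%), against 8.8% at the same levels, LEFTY1 most and then INHBE (2.51), GREM1 (1.76) and WNT8B (1.66), and of 42 receptors PTCH1 alone (1.55), or 2.38% against 1.93%. The libraries' order was not shared among the 7 ligands.

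Surface and cell cycle genes varied about as often as others at their levels. ALPL, the tissue non-specific alkaline phosphatase, stood at 613, 600.3 and 630.5 TPM, EPCAM at 552, 615 and 582 and CLDN6 at 581, 544 and 549, and 1 of 32 tested varied (CLDN4, 1.78), or 3.12% against 1.87%. CCND2 was the highest cyclin at 672, 675 and 529 TPM, and CCND1 was 0.2902 ± 0.0198 of it. CCNE1 was 20.99 ± 3.83 times CCNE2. Among cell cycle inhibitors, CDKN1A and CDKN1B stood at 227, 242 and 198 and 171, 219 and 185 TPM, and CDKN2A at 0.799, 0.485 and 0.713. Of 33 tested, CDK6 varied (1.51), or 3.03% against 1.6%. Imprinted genes were detected in 25 of 29 cases, with H19 at 139, 188 and 146 TPM, PEG10 at 84.7, 105 and 72.1, IGF2 at 4.95, 4.72 and 5.23 and DIRAS3 at 0, 0 and 0.0561, and KCNQ1OT1 was the varying member of 25 tested, or 4% against 3.84%.

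Outside the lists, the largest ratios among protein-coding genes at 5 CPM or more, after CGA and LEFTY1, were those of CCR8, a chemokine receptor, at 3.76, 5.42 and 12.5 CPM, and ATP6V0D2, a proton pump subunit, at 2.95, 7.39 and 8.73 CPM. ACTA1, the skeletal muscle actin, was at 46.1, 65.2 and 100.2 CPM and the interferon-inducible IFI16 at 6.66, 8.73 and 14.6 CPM, both highest in library 3. The long genes NEB, MAGI2 and MUC19 were highest in library 1, at 24.9, 12.4 and 14.9, 7.85, 4.58 and 3.92 and 8.75, 4.44 and 5.09 CPM. FOSB, an immediate early gene, stood at 29.2, 21.97 and 14.03 CPM and LIPG, an endothelial lipase, at 5.01, 9.88 and 4.57. Of all 1510 varying entries, 930 were highest in library 1, and of the 470 non-coding ones 341. The first share was 61.6%, and between 58.9% and 68.3% over the other scalings tried.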

How the data were processed

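Libraries were made from total RNA with a Watchmaker kit that removes ribosomal RNA, per the labels' protocols, while another label field names polyA RNA, so which transcripts were selected remains unclear. The submitters' processing notes list Trim Galore 0.6.10, HISAT2 2.2.1 and the build GRCh38. How reads were counted, on which annotation and with which strand, is not stated in the labels, and overlapping genes can share reads. The authors deposited whole-number counts per gene with GRCh38 coordinates, not normalised, in 56312 entries; 5 without an identifier (0.0093 to 0.0100% of counts, PFKFB3 and PFKFB4 among them) were left out.

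CPM were scaled by TMM (edgeR 4.0.16 in R 4.3.3) over the 3 libraries. Gene types and exon lengths came from GENCODE 29, which matched 35044 identifiers; it may not be the annotation the authors used, and a long exon union lowers a gene's TPM. Of 160 genes inside a longer host's intron, 117 had more counts than the host. The comparison did not separate strands, so it cannot settle whether introns were counted. Varying genes were called by a ratio of at least 1.5 and a Pearson chi-square test against counting error at a Benjamini-Hochberg false discovery rate of 0.05 (scipy 1.17.1), checked on simulated data. A floor of 3 counts gave 0.0158 CPM over the group and 0.0361 to 0.0714 CPM per library, for counting error only.

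The members and the 30 lists were chosen with earlier results of these data known. The naming rule took the 4 markers, up to 8 members per list by TPM, up to 4 by ratio, pair members, the 20 protein-coding and 15 non-coding genes highest in TPM, the 15 and 5 with the largest ratios at 5 CPM or more, and up to 6 undetected members of developmental lists. Other members named were chosen after their values were seen. ABHD11-AS1, LINC00545, LINC00617, MIR371A, RN7SK, RN7SL1, RN7SL2 and SCARNA10 are not analysed here, and some results on single genes are not reported here. A planned comparison of promoter CpG content was void, because promoter sequences matched 77.8% of protein-coding genes and 80% were required. Alternatives were other scalings, filters, thinning, the longest transcript as length, all genes in the TPM denominator, and each library left out.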

Additional observations from a re-analysis of the deposited data

How the results depend on the processing

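The count of 16165 detected entries stayed between 16134 and 16183 under 4 other scalings and thinning to the smallest library, was 18015 at 0.5 CPM and 12271 at 5 CPM, and was 16260 to 16412 with a library left out. The 1510 varying entries were 1464 to 1654 under other scalings, 1522 after thinning and 1546 by the ratio alone. The 1464 came from TMM factors over all 9 libraries, treated ones included. By construction, the count moved to 232 at a ratio of at least 2, 3902 with no filter on low counts, 377 at a minimum of 5 CPM, and 486 to 843 with a library left out (ratio over 2 libraries), with the lowest of these without library 1. The log2 ratio of EZH2 over EZH1, 0.09, was reversed to -0.19 with the longest transcript as length. With that length 14 other pair ratios moved beyond their SD (SHMT2 over SHMT1, IDH1 over IDH2 and DPPA2 over DPPA4 by 1.865, 1.852 and 1.642 times) and 16 did not, and 22 of 30 list medians moved. With a library left out, 0 of 31 pair ratios moved beyond their SD in each case. That outcome was fixed in advance, because in a group this small leaving a library out cannot shift the mean by its SD. It therefore does not show whether the pair ratios depend on a single library. The largest median shift of an autosome in a library, -0.09 on the log2 scale, was -0.13 by library size and -0.07 at 5 CPM. No paired analysis was possible because no groups are compared here. The order of the libraries within lists on other scales, the calls of list members without each library, and the share varying at the same levels as a list were added after seeing the data. Low genes limit the reading: at a mean between 1 and 5 CPM, 24.1% of protein-coding genes varied.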
